A study of Mus musculus with 33 samples.

Results

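Inflammatory cytokines and chemokines are the secreted signals with which stressed or injured tissue calls in white blood cells, and 9 of them are described here: the chemokines Cxcl1, Cxcl2, Cxcl10, Ccl2 and Ccl7, the interleukins Il6, Il23a and Il1b, and the tumor necrosis factor gene Tnf. They were chosen by name, as the entries whose Ensembl identifiers carry those symbols, and are 9 of 50420 features in 6 tables of normalized counts. Of the 54 pairs of a member and a table, 52 had an entry, and Ccl7 and Il6 were not listed in the CAST liver table.

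The samples were liver and kidney of male mice aged 15 to 23 weeks of 3 genotypes: C57BL/6J (B6), CAST/EiJ (CAST), and the F1 of a B6 mother and a CAST father. Mice received 1 mg/kg tunicamycin (TM) or the solvent DMSO (control) by intraperitoneal injection, and the time to collection is 24 h in the sample labels and 8 h in the methods of the study. TM blocks N-linked glycosylation, so that proteins misfold in the endoplasmic reticulum (ER) and the unfolded protein response (UPR) begins. B6 liver and F1 liver each held 2 TM and 3 control libraries, CAST liver held 3 TM and 2 control libraries, and each kidney group held 3 libraries. The study set out to compare the response to ER stress between genotypes and between tissues, and the comparisons here are TM against control within each table and the differences of those responses between tissues and genotypes. F1 mice carry a B6 and a CAST copy of each autosome, so that an F1 value sums both copies. The methods of the study describe 6 mice of each genotype and organs taken from them, so that liver and kidney libraries of a group share mice, but the labels do not tie a liver library to a kidney one. Tests between tissues therefore treated all libraries as separate, and p-values measure the spread between these libraries.

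Cytokine and chemokine genes are silent or weakly expressed in resting liver and kidney. The transcription factor NF-kB, held in the cytoplasm by inhibitors of the IkB family, is released when cells meet microbes, damage or other cytokines and then switches many of these genes on. The ER stress sensors IRE1 and PERK are also known to activate NF-kB, which is 1 of several routes from ER stress to inflammatory genes. Cxcl1 and Cxcl2 draw neutrophils through the receptor Cxcr2, Cxcl10 draws activated T cells through Cxcr3, and Ccl2 and Ccl7 draw monocytes through Ccr2.

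The 33 libraries, 15 of liver and 18 of kidney, held 3355262 to 23094521 reads recovered from the tables (median 13143216). The ER chaperone gene Hspa5 and the UPR transcription factor gene Ddit3 were called higher under TM in all 6 tables, with log2 fold changes of 3.67 to 5.35 for Hspa5 and 6.30 to 6.93 for Ddit3. Summed normalized counts of 6 hepatocyte markers were 243820 to 1135690 in liver and 83.3 to 1875 in kidney, and those of 6 kidney tubule markers were 9.26 to 249 in liver and 32925 to 169799 in kidney. In 5 libraries over 400 of every 1000000 reads (400 RPM) lay on olfactory and vomeronasal receptor genes, against at most 311 in the others: B6 liver control 2, B6 liver TM 3, F1 liver control 2, F1 liver TM 2 and F1 kidney control 1. F1 liver control 2 also had 61.5% of its reads on the single repeat-like model Gm10800, and F1 kidney control 1 was the shallowest library.

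The promoters of several of these genes hold NF-kB motifs. RefSeq promoter windows of build GRCm38.p6 were at hand for 6 of the 9 members (Cxcl1, Cxcl2, Cxcl10, Il6, Il1b and Tnf), and the 250 bases before each start were searched on both strands for GGGNNNTTCC, an NF-kB motif. The 170 bases before the start of 3 chemokine genes are shown, since these carry the most matches and all 3 genes were called in the counts below. Capitals mark the matches of the motif on either strand, and the last base printed is the one before the start.

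Cxcl1, chr5:90891075-90891244, plus strand: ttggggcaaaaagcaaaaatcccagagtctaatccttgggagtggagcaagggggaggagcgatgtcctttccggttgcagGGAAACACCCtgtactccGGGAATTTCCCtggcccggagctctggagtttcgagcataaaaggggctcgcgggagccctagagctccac
Cxcl2, chr5:90903729-90903898, plus strand: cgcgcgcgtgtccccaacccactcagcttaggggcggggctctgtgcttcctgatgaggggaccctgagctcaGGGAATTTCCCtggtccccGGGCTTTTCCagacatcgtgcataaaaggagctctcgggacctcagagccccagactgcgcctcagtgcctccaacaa
Cxcl10, chr5:92348890-92349059, minus strand: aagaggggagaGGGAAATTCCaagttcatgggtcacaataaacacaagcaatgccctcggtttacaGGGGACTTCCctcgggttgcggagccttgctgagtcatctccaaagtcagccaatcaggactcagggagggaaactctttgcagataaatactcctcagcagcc

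The motif matched 3 times in Cxcl1, 3 times in Cxcl2, 2 times in Cxcl10, once in Il6 and not in the windows of Il1b and Tnf, where 4.65% of 32851 promoters had a match. Cxcl1 and Cxcl2 share a palindromic stretch that was counted on both strands, at 71 bases before the start in Cxcl1 and at 97 bases in Cxcl2. An interferon response element, GAAANNGAAA, was found in Cxcl10 alone and in 2.98% of all promoters. The AP-1 motif TGANTCA was found in Cxcl10 and Il6 and in 6.75% of all promoters. The CHOP and ATF4 composite element TGATGNAAT was in none of the 6 windows and in 0.816% of all promoters. These matches describe letters in the window and were not tested as binding sites.

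Within each table, TM was compared with control by limma on log2 of the normalized count plus 1, and calls needed an adjusted p below 0.05 (Benjamini-Hochberg over all features tested) together with a change of 1.5-fold or more. Entries whose normalized counts averaged under 5 in a table were not tested, which left 35 of the 54 pairs. Of these, 9 were called higher and 1 was called lower under TM, where 3.42% (F1 liver) to 11.1% (CAST liver) of all features were called higher and 2.57% (F1 kidney) to 10.4% (CAST liver) lower. In 11 of the 35 the control mean was under 5, so that the member was tested only because its TM group was higher, and 4 of the 9 calls were among them: Il23a in CAST liver and CAST kidney, Cxcl2 in B6 kidney and Ccl2 in CAST kidney. Il23a gave 4 of the calls, Cxcl1 gave 3, and Cxcl2, Cxcl10 and Ccl2 gave 1 each. Il1b was tested in 6 tables and Tnf in 4, and neither was called, while Ccl7 and Il6 were too low to be tested in any table.

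**Figure D1:**
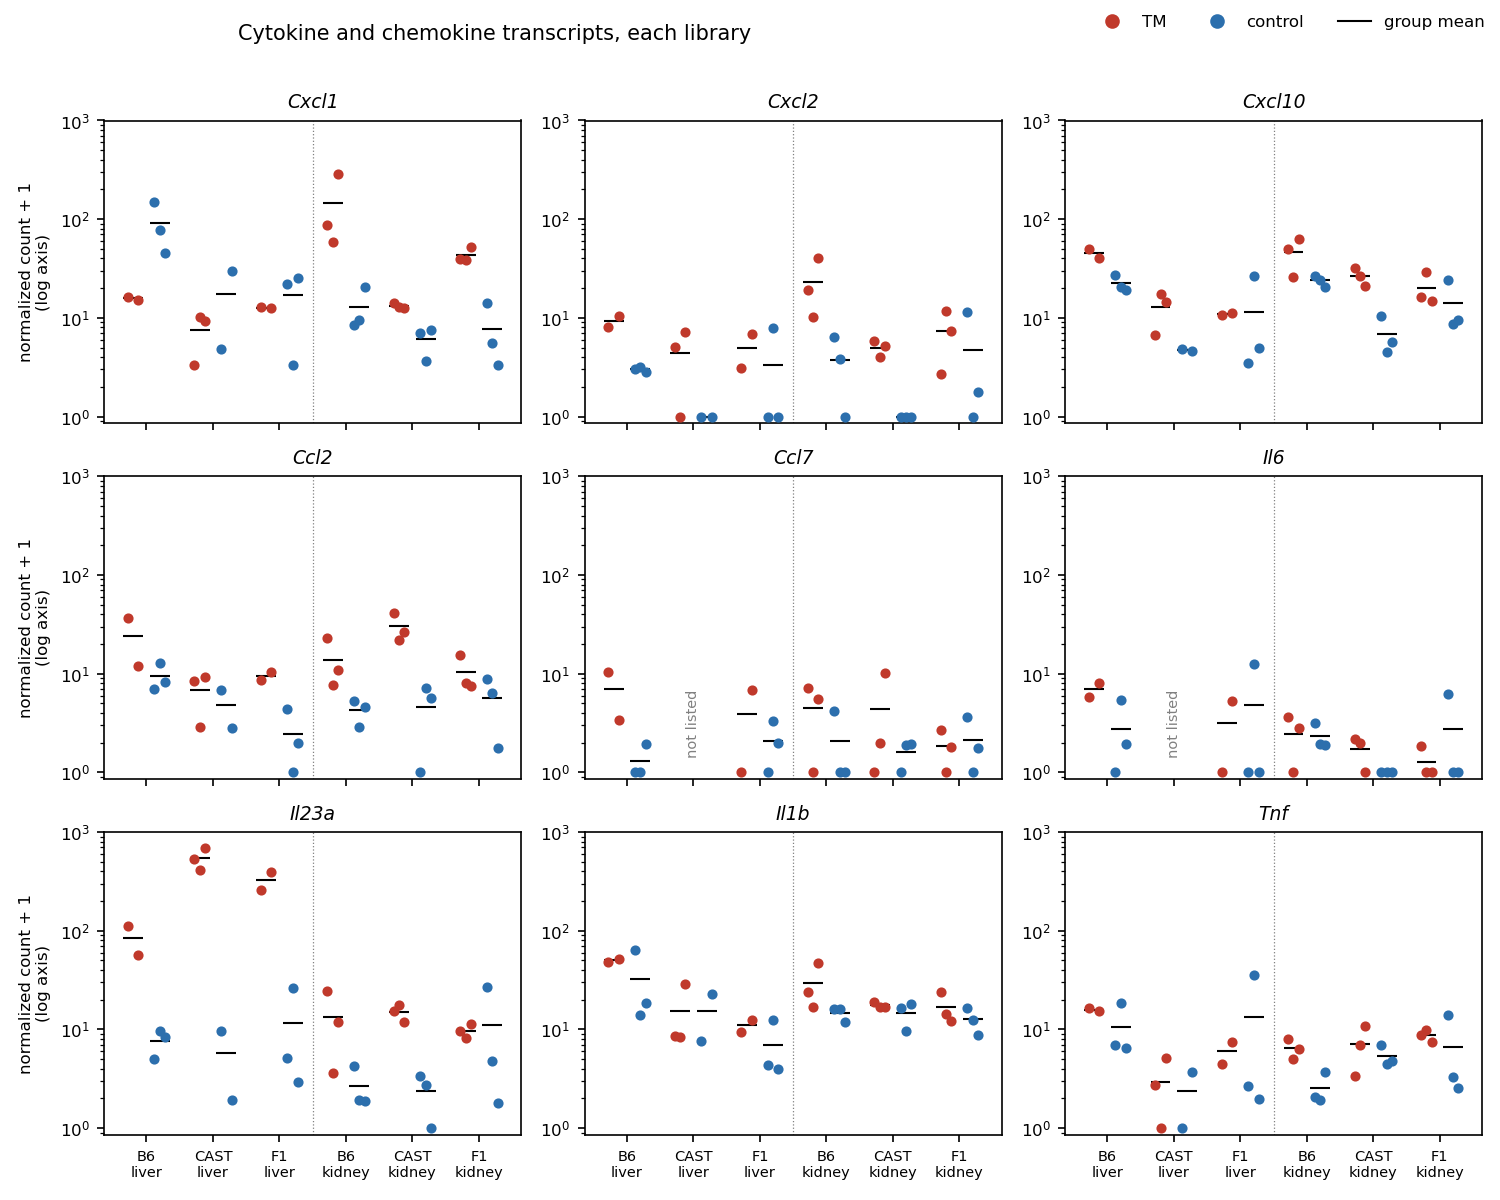
Normalized count plus 1 of the 9 genes in each library, on a log axis, with TM points left of control points for each genotype and tissue and a bar at the group mean. Il23a stands above all controls in every liver TM library, while Cxcl1 in B6 is below all controls in liver TM libraries and above all controls in kidney TM libraries.

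Il23a encodes the subunit that is particular to interleukin-23, a cytokine that supports T cells which make interleukin-17. In CAST liver its normalized counts were 529, 412 and 683 in TM libraries, against 8.63 and 0.908 in control libraries. Every CAST TM library was thus far above both controls. The log2 fold change was 6.95 with an SE of 0.56 (limma, adjusted p = 5.4e-05), and it was the only call among the 5 members tested in CAST liver, where 21.5% of all features were called and 11.1% were called higher. Means were 541 ± 136 (SD, n = 3) under TM and 4.77 ± 5.46 (SD, n = 2) in controls, and the counts rest on 223 to 918 reads per TM library and on 9 and 1 reads in the controls.

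In F1 liver Il23a had normalized counts of 260 and 390 in TM libraries, against 4.17, 25.3 and 1.96 in control libraries. The high control is F1 liver control 2, the library rich in Gm10800 reads. TM raised it by a log2 fold change of 5.44 with an SE of 0.71 (limma, adjusted p = 5.28e-05), again the only call, among 5 members tested, where 7.57% of all features were called and 3.42% higher. Without that control library it was 6.35 (limma, adjusted p = 2.65e-06). Without TM library 1 it was 5.73 and the call was lost (limma, adjusted p = 0.0549).

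In B6 liver Il23a had normalized counts of 110 and 55.3 in TM libraries, against 4.01, 8.69 and 7.32 in control libraries. Both TM libraries were above all controls, at lower counts than in the other genotypes. This gave a log2 fold change of 3.42 with an SE of 0.56 (limma, adjusted p = 0.00388), and without TM library 1 it was 2.93 (limma, adjusted p = 0.104). Averaged over the 3 genotypes in liver, the log2 fold change of Il23a under TM was 5.27 with an SE of 0.43 (limma, adjusted p = 4.52e-08), the only call among 6 members tested, where 28.7% of all features were called and 13.3% higher.

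In kidney Il23a was far lower. CAST kidney had normalized counts of 14.3, 16.9 and 10.8 in TM libraries, against 2.38, 1.75 and 0 in control libraries, with no overlap. This was a log2 fold change of 2.81 with an SE of 0.58 (limma, adjusted p = 0.0125), which was lost without TM library 2 (2.67, limma, adjusted p = 0.0695). In B6 kidney the values were 23.6, 2.64 and 10.8 in TM libraries, against 3.22, 0.935 and 0.899 in control libraries. These groups overlapped, and the log2 fold change of 2.03 with an SE of 0.74 did not pass (limma, adjusted p = 0.0785). It passed with edgeR (adjusted p = 0.0315), with DESeq2 (adjusted p = 0.0209) and without TM library 2 (limma, adjusted p = 0.019). It also passed with the replicate number as a block (limma, adjusted p = 0.0207). The labels do not say that libraries of the same number belong together, and the control mean of 1.68 was under the filter.

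In F1 kidney Il23a had normalized counts of 8.57, 7.11 and 10.5 in TM libraries, against 26.0, 3.82 and 0.782 in control libraries. The groups overlapped because of control 1, the shallowest library, in which the value stands for 10 reads. Over all 6 libraries the log2 fold change was 0.65 with an SE of 0.94 (limma, adjusted p = 0.715), and without that library it was 1.71 (limma, adjusted p = 0.0665).

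Across the 12 groups, Il23a was highest in CAST liver TM at 57.1 ± 17.1 RPM (SD, n = 3), followed by F1 liver TM at 41.3 ± 20.5 (SD, n = 2) and B6 liver TM at 8.64 ± 3.30 (SD, n = 2). CAST and F1 libraries overlapped in this level, at 39.1 to 73.2 and 26.8 to 55.8, and every B6 library was below them, at 6.31 to 11.0. The kidney TM groups followed with medians of 1.05 in CAST, 0.862 in B6 and 0.784 in F1, and their libraries overlapped. These levels leave out 42 repeat-like gene models from the total, come from tables made from different genome alignments, and were not tested against each other.

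Cxcl1, a chemokine for neutrophils, was higher in kidney and lower in liver of B6 mice given TM. In B6 kidney its normalized counts were 87.2, 58.0 and 285 in TM libraries, against 7.51, 8.42 and 19.8 in control libraries. All 3 TM libraries were above all controls. The log2 fold change was 3.27 with an SE of 0.55 (limma, adjusted p = 0.00234). It was 1 of 2 calls, both higher, among 6 members tested in B6 kidney, where 17.5% of all features were called and 9.73% higher.

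In B6 liver Cxcl1 had normalized counts of 15.4 and 14.2 in TM libraries, against 148, 76.0 and 44.8 in control libraries. Both TM libraries were below all controls. Cxcl1 fell here with a log2 fold change of -2.35 and an SE of 0.49 (limma, adjusted p = 0.0126), the only call in the lower direction for any member. Of 6 members tested in B6 liver, 2 were called, where 11.3% of all features were called, 4.8% higher and 6.45% lower. Without control library 1, the highest, the log2 fold change was -1.91 and the call was lost (limma, adjusted p = 0.0518).

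In F1 kidney Cxcl1 had normalized counts of 38.6, 37.4 and 51.5 in TM libraries, against 13.0, 4.59 and 2.35 in control libraries. The groups did not overlap. Its log2 fold change was 2.75 with an SE of 0.53 (limma, adjusted p = 0.00912), the only call among 7 members tested in F1 kidney, where 10.1% of all features were called and 7.54% higher. Leaving out any 1 of the 3 TM libraries lost the call, with log2 fold changes of 2.61 to 2.83 and limma's adjusted p between 0.0541 and 0.0748.

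In CAST kidney Cxcl1 had normalized counts of 13.1, 11.9 and 11.6 in TM libraries, against 5.96, 2.62 and 6.58 in control libraries. The TM libraries were all above the controls, but the log2 fold change of 1.20 with an SE of 0.43 did not pass (limma, adjusted p = 0.104). In CAST liver the values were 2.30, 9.24 and 8.23 in TM libraries, against 3.83 and 29.1 in control libraries, with a log2 fold change of -0.83 and an SE of 0.85 (limma, adjusted p = 0.532). The CAST liver groups overlapped, so no direction was seen there.

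In F1 liver Cxcl1 had normalized counts of 11.8 and 11.6 in TM libraries, against 20.8, 2.30 and 24.5 in control libraries. The log2 fold change was 0.05 with an SE of 0.96 (limma, adjusted p = 0.991). The low control is again F1 liver control 2, in which the value is 1 read, and without it the log2 fold change was -0.89 (limma, adjusted p = 0.212). Averaged over genotypes, the log2 fold change of Cxcl1 was 2.40 in kidney with an SE of 0.32 (limma, adjusted p = 6.88e-06) and -1.04 in liver with an SE of 0.50 (limma, adjusted p = 0.129).

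Cxcl1 was expressed at the highest median in B6 liver controls, at 7.60 RPM (3.36 to 11.7, n = 3), and next in B6 kidney TM libraries, at 6.70 (4.73 to 22.8, n = 3). These groups overlapped. F1 kidney TM libraries followed at 3.73 (3.53 to 4.94, n = 3), and the other 9 groups had medians from 0.456 in CAST kidney controls to 1.58 in B6 liver TM libraries.

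**Figure D2:**
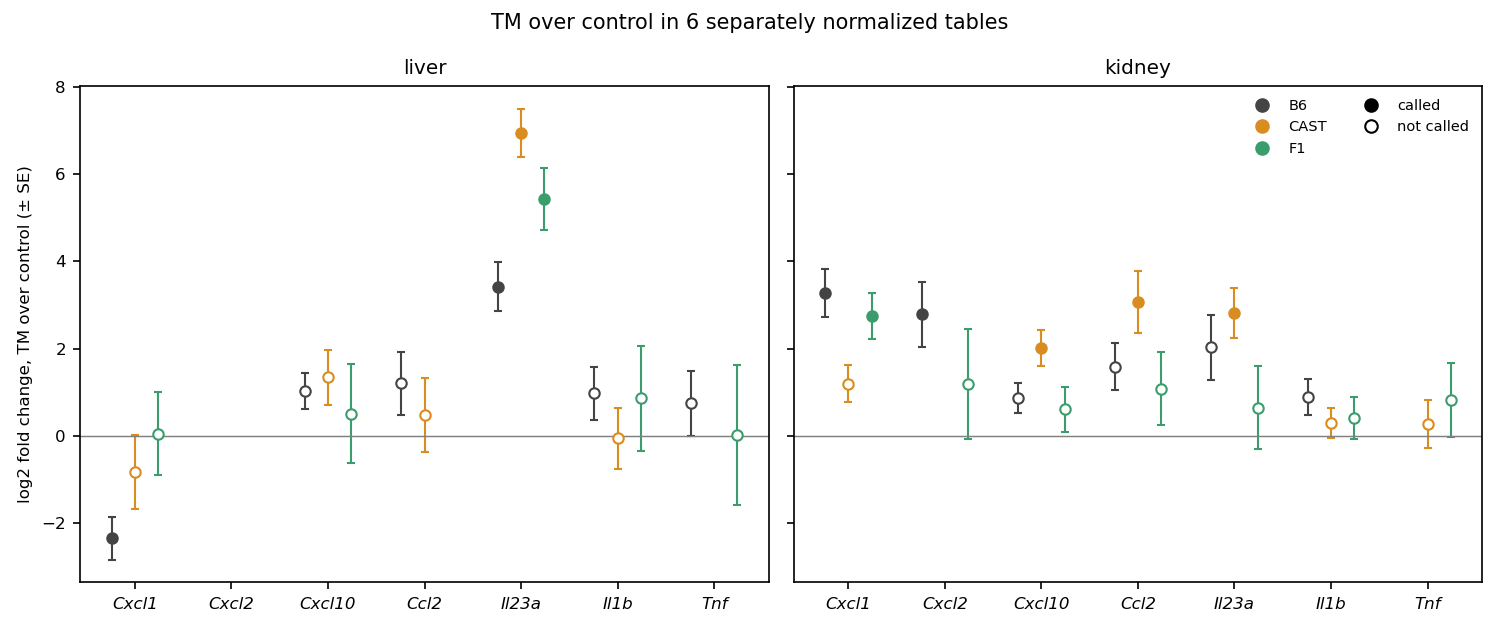
Log2 fold change of TM over control (limma, error bars 1 SE) of the 7 members tested in at least 1 table, in liver and kidney, by genotype, with filled points for calls. In liver the filled points are Il23a in all 3 genotypes and Cxcl1 in B6, which is below 0, and all filled points in kidney are above 0.

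Cxcl2, a close relative of Cxcl1 with the same receptor, passed the filter on low values in 2 tables, both of kidney. In B6 kidney it had normalized counts of 18.3, 9.23 and 39.4 in TM libraries, against 5.36, 2.81 and 0 in control libraries. The groups did not overlap, and the log2 fold change was 2.79 with an SE of 0.75 (limma, adjusted p = 0.0232). The call was lost without TM library 3 (2.28, limma, adjusted p = 0.109) and without control library 3 (2.02, limma, adjusted p = 0.0622). In F1 kidney the values were 1.71, 10.7 and 6.44 in TM libraries, against 10.4, 0 and 0.782 in control libraries, and the log2 fold change was 1.18 with an SE of 1.26 (limma, adjusted p = 0.613). Cxcl2 was too low to test elsewhere. In B6 liver it had 7.09 and 9.49 in TM libraries, against 2.00, 2.17 and 1.83 in control libraries, and in CAST kidney 4.78, 2.97 and 4.14 in TM libraries, against 0 in each control library.

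Cxcl10 is induced by interferon and by NF-kB. In CAST kidney it had normalized counts of 31.0, 25.8 and 19.9 in TM libraries, against 9.53, 3.50 and 4.70 in control libraries. All TM libraries were above all controls, and the log2 fold change was 2.02 with an SE of 0.41 (limma, adjusted p = 0.0123). It was 1 of 3 calls, all higher, among 6 members tested in CAST kidney, where 13.4% of all features were called and 8.69% higher. The call was lost without TM library 1 (1.87, limma, adjusted p = 0.0505) or TM library 2 (2.00, limma, adjusted p = 0.0585).

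In B6 liver Cxcl10 had 48.5 and 39.5 in TM libraries, against 26.0, 19.6 and 18.3 in control libraries, which did not overlap. Its log2 fold change there was 1.02 with an SE of 0.42 (limma, adjusted p = 0.166). Without the libraries rich in receptor reads the log2 fold change was still above 0. That fit leaves 1 TM library, so it cannot decide whether Cxcl10 rose in B6 liver. In CAST liver the values were 5.76, 16.6 and 13.4 in TM libraries, against 3.83 and 3.63 in control libraries, and the log2 fold change was 1.34 with an SE of 0.64 (limma, adjusted p = 0.17). Neither difference passed the test, although every TM library was above every control in both tables. Log2 fold changes in the other 3 tables were 0.51 in F1 liver, 0.86 in B6 kidney and 0.60 in F1 kidney, with limma's adjusted p between 0.103 and 0.918. Cxcl10 lies inside the gene Art3 on the opposite strand, and the sources used here do not say whether reads were counted by strand. Art3 was not called in any table, with log2 fold changes of -0.71 to 0.16.

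Ccl2 draws monocytes out of the blood. In CAST kidney it had normalized counts of 40.6, 20.8 and 25.7 in TM libraries, against 0, 6.12 and 4.70 in control libraries. These groups did not overlap, and the log2 fold change was 3.07 with an SE of 0.71 (limma, adjusted p = 0.0216). Leaving out any 1 of the TM libraries lost the call, with log2 fold changes of 2.81 to 3.28 and limma's adjusted p between 0.0578 and 0.0727. In B6 kidney the values were 21.8, 6.59 and 9.85 in TM libraries, against 4.29, 1.87 and 3.59 in control libraries. These did not overlap either, but the log2 fold change of 1.58 with an SE of 0.54 did not pass (limma, adjusted p = 0.0623). It passed with edgeR (adjusted p = 0.0376) and without TM library 2 (limma, adjusted p = 0.0473). It also passed with the replicate block (limma, adjusted p = 0.021), which assumes that libraries of the same number belong together. The control mean of 3.25 was under the filter.

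In B6 liver Ccl2 had 35.5 and 11.1 in TM libraries, against 6.01, 11.9 and 7.32 in control libraries. The lower TM value and the highest control are from the libraries rich in receptor reads, and the log2 fold change over all libraries was 1.20 with an SE of 0.73 (limma, adjusted p = 0.39). Without the libraries rich in receptor reads, which leaves 1 TM library, it was 2.26 (limma, adjusted p = 0.00578), where 37.9% of all features were called. In F1 liver it had 7.64 and 9.40 in TM libraries, against 3.33, 0 and 0.979 in control libraries, which did not overlap but were below the filter. Log2 fold changes were 0.48 in CAST liver and 1.08 in F1 kidney, neither past the test (limma, adjusted p = 0.732 and 0.468). The predicted gene Gm17268, which overlaps Ccl2, had normalized counts of at most 7.80, in F1 kidney control 1, and is not listed in the CAST tables, so that it gives no value for CAST kidney, where Ccl2 was called.

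Ccl7, a second chemokine for monocytes, had at most 11 reads in any library and no reads in 11 of the 28 libraries of the 5 tables that list it. In B6 liver it had normalized counts of 9.46 and 2.37 in TM libraries, against 0, 0 and 0.915 in control libraries, and in CAST kidney 0, 0.992 and 9.10 in TM libraries, against 0, 0.874 and 0.940 in control libraries. In B6 kidney the TM values were 6.11, 0 and 4.48, against 3.22, 0 and 0 in control libraries. The B6 liver groups did not overlap, on 11 reads in 2 TM libraries, against 1 read in 3 control libraries. Ccl7 was under the filter in every table and was not tested.

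Il6, the main inducer of the liver's acute phase proteins, had at most 9 reads in any library and none in 13 of 28. In B6 liver it had normalized counts of 4.73 and 7.12 in TM libraries, against 0, 4.34 and 0.915 in control libraries, where the lowest TM value and the highest control value both stand for 4 reads. In F1 liver it had 0 and 4.34 in TM libraries, against 0, 11.5 and 0 in control libraries, and in every kidney library it had at most 5.20. The B6 liver groups did not overlap, on 13 reads in 2 TM libraries, against 5 reads in 3 control libraries. Il6 was likewise not tested in any table.

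Il1b is made as an inactive precursor, mainly by macrophages, and is cut by caspase-1. It was read in every library, with 3 to 64 reads. In B6 kidney it had normalized counts of 22.7, 15.8 and 46.6 in TM libraries, against 15.0, 15.0 and 10.8 in control libraries, with a log2 fold change of 0.88 and an SE of 0.41 (limma, adjusted p = 0.159). The groups did not overlap, but the lowest TM library was only just above the controls. In B6 liver it had 47.3 and 50.6 in TM libraries, against 63.1, 13.0 and 17.4 in control libraries, with a log2 fold change of 0.97 and an SE of 0.60 (limma, adjusted p = 0.407). The log2 fold changes in the other 4 tables were -0.06 in CAST liver, 0.86 in F1 liver, 0.30 in CAST kidney and 0.41 in F1 kidney, with limma's adjusted p between 0.637 and 0.961. The antisense gene Il1bos had at most 11.6 normalized counts, in an F1 liver TM library, and is not listed in the CAST tables.

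Tnf, which activates NF-kB and cell death through its receptors, had at most 18 reads in a library. In B6 kidney it had normalized counts of 6.98, 3.96 and 5.37 in TM libraries, against 1.07, 0.936 and 2.70 in control libraries, which did not overlap but were under the filter. In B6 liver it had 15.4 and 14.2 in TM libraries, against 6.01, 17.4 and 5.49 in control libraries, with a log2 fold change of 0.75 and an SE of 0.75 (limma, adjusted p = 0.674). In F1 liver it had 3.47 and 6.51 in TM libraries, against 1.67, 34.5 and 0.979 in control libraries, and the 34.5 is from F1 liver control 2. Log2 fold changes were 0.26 in CAST kidney and 0.81 in F1 kidney, and neither passed (limma, adjusted p = 0.812 and 0.602).

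Counted with neither a test nor a filter, 5 of the 9 members had all TM libraries above all controls in B6 kidney, where 12.7% of all features with a read in the table did. The same number stood above in CAST kidney, where 12.5% of features did, and in B6 liver, where 11.3% did. In F1 kidney 1 member stood above, against 11.4% of features, and in F1 liver 2 did, against 15.6%. In CAST liver 2 of the 7 listed members stood above, against 17.2% of features. The single member below was Cxcl1 in B6 liver, where 10.5% of features were below. Over the same unfiltered entries, the median log2 fold change of the members was 1.20 in B6 liver, 0.48 in CAST liver, 0.51 in F1 liver, 1.36 in B6 kidney, 1.20 in CAST kidney and 0.65 in F1 kidney. That of all features was 0.21 in B6 liver, -0.04 in CAST liver, 0.54 in F1 liver, -0.05 in B6 kidney, -0.06 in CAST kidney and -0.31 in F1 kidney, so that in F1 liver the members' median was no higher.

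Taking the 3 genotypes together, kidney had 5 of 7 members tested called higher, where 21.7% of all features were called and 11.1% higher. Besides Cxcl1, these were Cxcl2 with a mean log2 fold change of 2.09 (SE 0.50, limma, adjusted p = 0.00282), Ccl2 with 1.91 (SE 0.41, limma, adjusted p = 0.00107), Il23a with 1.83 (SE 0.48, limma, adjusted p = 0.00518) and Cxcl10 with 1.16 (SE 0.26, limma, adjusted p = 0.00144). Control means in B6, CAST and F1 kidney were 2.72, 0 and 3.73 for Cxcl2 and 3.25, 3.61 and 4.64 for Ccl2. For Il23a they were 1.68, 1.38 and 10.2. Cxcl2, Ccl2 and Il23a thus each averaged under 5 in controls and were tested only because their TM libraries were higher. Il1b and Tnf had 0.53 and 0.81 and did not pass (limma, adjusted p = 0.0884 and 0.0897). In liver the mean log2 fold changes of Ccl2, Cxcl10, Il1b and Tnf were 1.30, 0.96, 0.59 and 0.36, with limma's adjusted p between 0.0673 and 0.759.

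The difference between tissues was tested by taking the kidney log2 fold change off the liver one. This cancels a scaling factor of each table only for counts well above the pseudocount of 1. Il23a in kidney controls averaged 1.68 in B6 and 1.38 in CAST, so that its difference depends there on the pseudocount. For B6 the difference of Cxcl1 was -5.62 with an SE of 0.90 (limma, adjusted p = 0.00643), the only call among 7 members tested, where 3.74% of all features were called and 2.83% lower. In CAST the difference of Il23a was 4.14 with an SE of 0.88 (limma, adjusted p = 0.0289), the only call among 5 members tested, where 2.72% of features were called and 1.1% higher. In F1 no member of 6 tested was called by limma, where 1.22% of features were, a share that ran from 0.309% to 8.36% when 1 library was left out. At an unadjusted p under 0.05 there were 2, Il23a at 4.79 (SE 1.42, adjusted p = 0.144) and Cxcl1 at -2.70 (SE 1.16, adjusted p = 0.349), and edgeR called 0 and DESeq2 called 1 member. Without F1 liver control 2 both were called, at 5.71 for Il23a (limma, adjusted p = 0.0193) and -3.64 for Cxcl1 (limma, adjusted p = 0.0187), where 8.36% of all features were called. The CAST call of Il23a is also fragile. It was lost when 1 of 8 of the 11 libraries was left out, with log2 differences of 2.97 to 4.28 and limma's adjusted p between 0.0533 and 0.0911. With a pseudocount of 0.5 the difference was 3.94 and the call was lost (limma, adjusted p = 0.0903). Control means of Il23a in CAST were 4.77 in liver and 1.38 in kidney. Il23a was thus tested there only because its TM libraries were higher.

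Averaged over the genotypes, 2 of 6 members tested differed between tissues, where 14% of all features were called, 4.37% higher and 9.68% lower in liver. Cxcl1 had a difference of -3.45 with an SE of 0.63 (limma, adjusted p = 0.00024) and Il23a of 3.44 with an SE of 0.71 (limma, adjusted p = 0.000923). Leaving out any 1 of the 33 libraries kept both calls. For Cxcl10, Ccl2, Il1b and Tnf the differences were -0.21, -0.62, 0.06 and -0.45, with SEs of 0.48 to 0.73, and none passed.

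**Figure D3:**
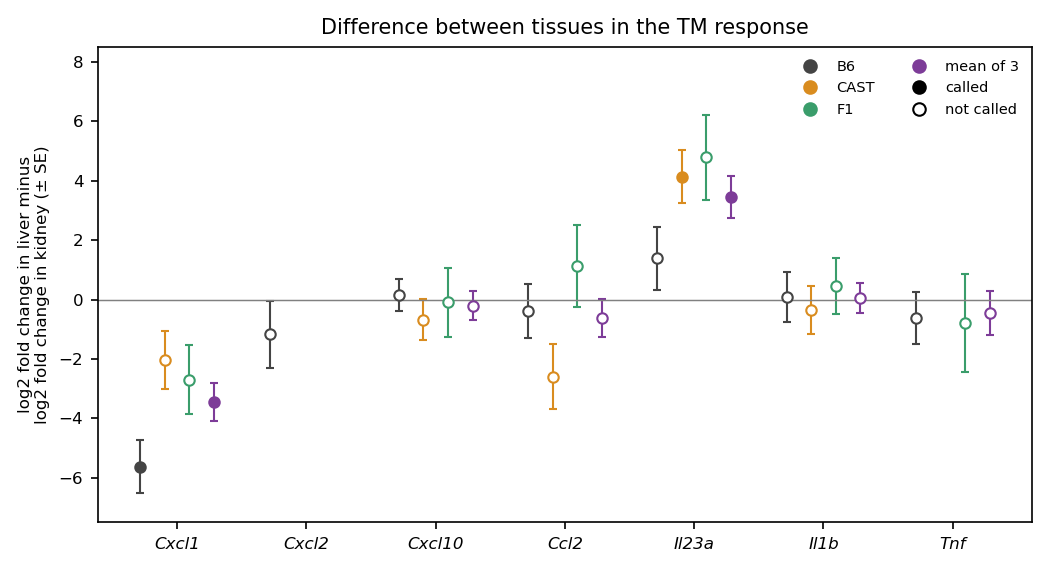
TM over control as log2 fold change, liver value less kidney value (limma, error bars 1 SE), by genotype and as the mean of 3 genotypes, with filled points for calls. Cxcl1 lies below 0 in each genotype and Il23a above 0, and those called are Cxcl1 in B6, Il23a in CAST, and both in the mean.

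No difference between genotypes was called for any member. In liver 0 of 6 members and 0 of 20701 features differed among the 3 genotypes by limma's F-test (0% called), with 1 member and 767 features at an unadjusted p under 0.05. That count of features depends on the processing. It ran from 0 to 136 over the alternatives and from 0 to 32 with 1 library left out, and no member was called in any of these. In kidney 0 of 7 members differed, where 0.0871% of features were called and 1 member had an unadjusted p under 0.05. Neither edgeR nor DESeq2 called a member in either tissue. The liver member was Il23a, for which the log2 fold change in B6 minus that in CAST was -3.53 (SE 1.05, limma, unadjusted p = 0.00344, adjusted p = 0.665). The kidney member was Cxcl1, for which the same difference was 2.07 (SE 0.78, limma, unadjusted p = 0.016, adjusted p = 1). For B6 against CAST alone, 0.00483% of features were called in liver and 0.0871% in kidney. The errors of these differences are wide, and a p that misses the threshold does not show that the genotypes respond alike.

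The other genes of the pathway are given by list, from the factors that switch on cytokine genes to the proteins that these induce. For comparison, 4.8%, 11.1% and 3.42% of all features were called higher in liver of B6, CAST and F1, and 9.73%, 8.69% and 7.54% in kidney. Those called lower were 6.45%, 10.4% and 4.15% in liver and 7.77%, 4.7% and 2.57% in kidney. Of 10 NF-kB factors and kinases, all tested in every table, those called higher were 2 in B6 liver, 3 in CAST liver, 0 in F1 liver, 5 in B6 kidney, 5 in CAST kidney and 2 in F1 kidney, and none was called lower. Rela, the main activating subunit of NF-kB, was called higher in 5 of the 6 tables with log2 fold changes of 1.17 to 1.56, and in F1 liver it had 0.88 (limma, adjusted p = 0.288). Relb, of the noncanonical pathway, was called higher in 4 tables, from 1.18 in B6 kidney to 2.11 in CAST liver. Chuk, the kinase IKK-alpha, was called higher in all 3 kidney tables, at 1.09 in B6, 1.38 in CAST and 1.64 in F1.

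Nfkbia, the classic IkB inhibitor and itself a target of NF-kB, was called lower in liver of all 3 genotypes, with log2 fold changes of -1.26 in B6, -1.51 in CAST and -2.08 in F1, and was not called in kidney, at -0.24 to 0.27. Averaged over genotypes, the liver value less the kidney value was -1.71 (SE 0.21, limma, adjusted p = 9.38e-07). Nfkbiz, an atypical IkB protein that helps to switch on a subset of NF-kB genes, was called higher in all kidney tables (0.79 to 1.14) and lower in CAST liver (-1.81) and F1 liver (-1.70), with a mean difference of -2.42 between liver and kidney (SE 0.23, limma, adjusted p = 2.25e-08). Nfkbib, a second IkB inhibitor, was called higher in 5 tables and had 1.31 in F1 liver (limma, adjusted p = 0.0835). Over the list of 15, those called higher were 1, 1 and 0 in B6, CAST and F1 liver and 3 in each kidney table, and those called lower were 2, 3 and 2 in liver and 0 in kidney.

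Among 15 target genes of NF-kB and cytokines, 4 were called higher in each kidney table and none lower. In liver 2, 3 and 1 were called higher in B6, CAST and F1, and 2, 3 and 1 were called lower. Hmox1, heme oxygenase, was called higher in all 6 tables, with log2 fold changes of 1.55 to 2.93 in liver and 4.67 to 5.91 in kidney, a mean difference of -3.13 (SE 0.34, limma, adjusted p = 2.08e-07). It is thus part of every count of genes called higher in this list. Whether NF-kB, a cytokine or another signal raised it was not tested. Icam1, the adhesion molecule to which leukocytes bind, was called higher in CAST liver (1.04) and all kidney tables (0.99 to 1.25). Plaur, the urokinase receptor, was called higher in kidney of B6 (2.34), CAST (1.22) and F1 (1.78). Irf1, an interferon regulatory factor, and Birc3, an inhibitor of apoptosis, were picked out after their values were seen as the genes of the list called lower in most tables. Irf1 was called lower in liver of B6 (-1.66), CAST (-1.40) and F1 (-1.80), and Birc3 in B6 liver (-1.28) and CAST liver (-1.46), and neither was called in kidney.

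**Figure D4:**
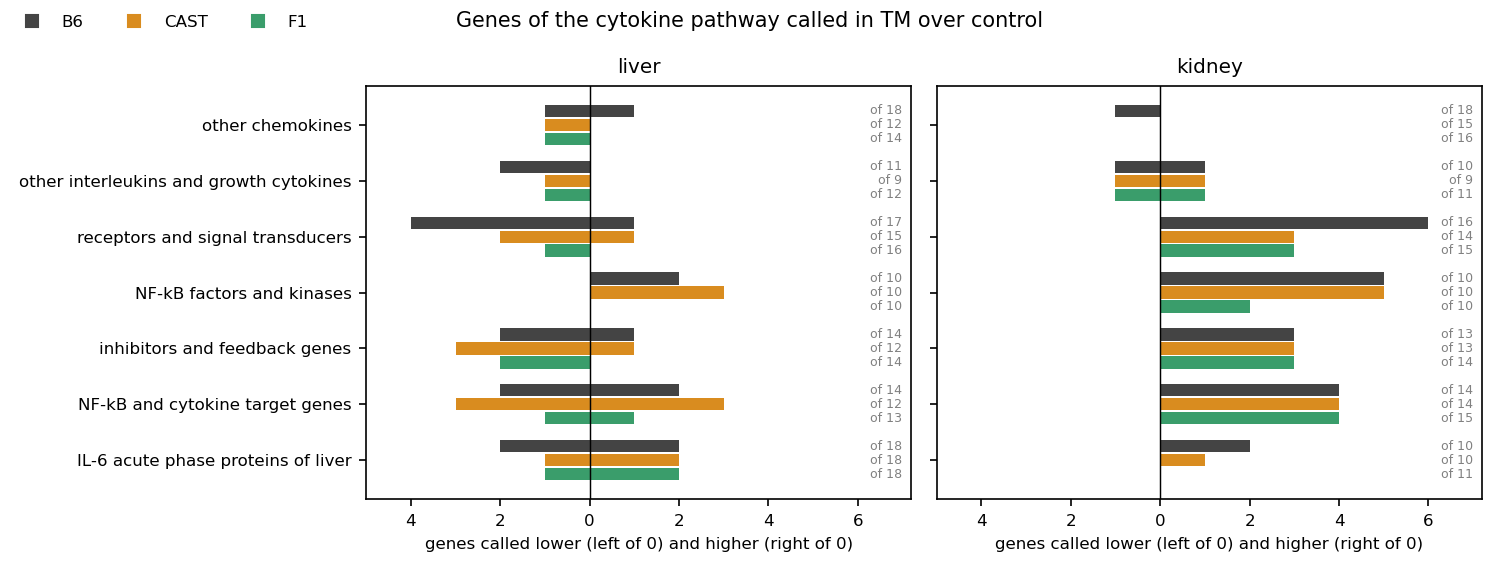
Number of genes of each pathway list called lower (left of 0) and higher (right of 0) under TM, in liver and kidney, by genotype, with the number tested in grey. In kidney the lists of NF-kB factors, inhibitors and target genes have calls in the higher direction only, and in liver the lists of inhibitors and target genes have calls in the lower direction in every genotype.

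Receptors and signal transducers numbered 19, of which 14 to 17 were tested in a table. Called higher were 1, 1 and 0 in B6, CAST and F1 liver and 6, 3 and 3 in kidney, and called lower were 4, 2 and 1 in liver and 0 in kidney. Il6ra, the receptor subunit that binds interleukin-6, was called lower in liver of all 3 genotypes (-1.45 in B6, -1.67 in CAST, -1.41 in F1) and higher in B6 kidney (0.59). Stat3, which carries the interleukin-6 signal to the nucleus, was called higher in all kidney tables (0.63 to 1.01) and lower in B6 liver (-1.23). Il12rb1, a receptor subunit shared by interleukin-12 and interleukin-23, was called higher in B6 liver (2.49), CAST liver (1.57) and B6 kidney (1.79).

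The partner of Il23a in interleukin-23 is Il12b, which was picked out after its values were seen. It was tested in 4 tables and called in none, with log2 fold changes of 1.71 in B6 liver, 1.76 in B6 kidney, 1.06 in CAST kidney and 0.88 in F1 kidney and limma's adjusted p between 0.0542 and 0.703. The receptor gene Il23r was too low to test in every table.

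Of 28 other chemokines, at most 1 was called in each direction in any table. Cxcl12, a chemokine made constantly by stromal cells, was called lower in liver of B6 (-1.88), CAST (-1.33) and F1 (-1.87), Ccl9 was called higher in B6 liver (1.36), and Ccl28 was called lower in B6 kidney (-1.89). Among 18 other interleukins and growth cytokines, Tnfsf10, the death ligand TRAIL, was called lower in all 6 tables, at -1.37 to -2.29. Il34, a ligand of the macrophage receptor Csf1r, was called higher in CAST kidney (1.22) and F1 kidney (1.63).

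Acute phase proteins, which hepatocytes release under interleukin-6, were 18, all tested in liver. In each genotype 2 were called higher in liver, and those called lower were 2, 1 and 1 in B6, CAST and F1. The 2 higher were Hamp, the iron hormone hepcidin (2.96 in B6, 3.10 in CAST, 2.12 in F1), and Apcs, serum amyloid P (2.07 in B6, 2.10 in CAST, 2.44 in F1). Those called lower were Crp and Serpina3n, each in 2 liver tables. Their mean log2 fold changes over all tables tested were -1.63 and -0.53. Serum amyloid A genes Saa1 and Saa2, picked out after their values were seen as the classic members of the list, were not called in liver, with log2 fold changes of -1.21 to 0.22 and limma's adjusted p between 0.773 and 0.971.

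Markers of white blood cells were read beside these values, since whole tissue was sequenced and fewer cells of a type cannot be told apart from less RNA per cell. Of 10 neutrophil markers, 2 to 4 could be tested in a table and none was called. Their summed normalized counts were 80.7 to 84.0 in TM and 44.8 to 88.0 in control libraries of B6 liver, and 22.4 to 34.0 in TM and 18.0 to 25.7 in control libraries of B6 kidney, where Cxcl1 and Cxcl2 were called higher. In F1 kidney the sums were 16.9 to 26.6 in TM and 16.0 to 117 in control libraries. Ly6g, the defining neutrophil marker, was not listed in the CAST liver table, which was taken as 0, and was at most 1.74 in B6 kidney TM libraries.

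Of 12 macrophage markers, Adgre1 was called higher in kidney of all 3 genotypes, at 1.00 in B6, 1.02 in F1 and 1.26 in CAST. The summed counts of the list did not go with it. They were 1290 to 2278 in TM and 1539 to 2056 in control libraries of B6 kidney, 1426 to 1482 and 1608 to 1791 in CAST kidney, and 865 to 1150 and 971 to 1110 in F1 kidney. Marco was called higher in B6 liver (2.21) and CAST liver (2.28), where the sums overlapped between TM and control libraries. Csf1r was called lower in 1 table, with a mean log2 fold change of -0.42 over the tables tested. No other macrophage marker was called. The 5 monocyte markers were lower as a sum in liver, at 3377 to 4342 in B6 TM libraries, against 13355 to 24041 in B6 control libraries, and 91.4% to 99.6% of that sum in liver is Fn1, which hepatocytes make. In CAST kidney, where Ccl2 was called higher, the sums were 1197 to 1927 in TM libraries, against 880 to 1166 in control libraries, without overlap, and none of the 4 monocyte markers tested there was called. Chil3, a marker of the same list, was called higher in CAST liver (2.43) and in no other table. Markers of T and NK cells and of B cells had no calls in any table. The part of these cells in the changes of the 9 members was not tested.

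The genes whose pattern was most like that of Il23a were sought by the correlation of log2 (RPM + 1), after the mean of each table was taken off, over 33 libraries and among 13235 genes. They were Ccne2 (r = 0.94), Rcc1 (0.938), Trim68 (0.932), Mtrr (0.931) and Shc4 (0.931). For Cxcl1 the 5 nearest were Esd (r = 0.703), Arl15 (0.701), Them4 (0.687), Itih3 (0.683) and Gm14519 (0.675). The 33 libraries share treatments and tables, so these values are descriptions of shared pattern.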

How the data were processed

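Total RNA of liver and kidney was sequenced from stranded libraries depleted of ribosomal RNA. Per the labels and the methods of the study, reads of B6 and CAST mice were aligned with Bowtie2 2.2.9 to the genome of each strain and those of F1 mice with STAR 2.6 to a genome masked at CAST variants (Ensembl release 103, SAMtools 1.12), and samples that did not cluster with their condition were removed by the authors. The read counter and its strand setting are not stated in the sources used here. Deposited values are a signal: read counts after division by size factors (DESeq2 1.28.1, by the authors) in 6 separate tables, so that levels are compared within a table. From 3 genotypes and 2 tissues 33 libraries in 12 groups were used, and no column was left out. Multiplying out 1 factor per library returned whole reads, and 100% of values came within 0.01 of a whole number. Depth was 3355262 to 23094521 reads.

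TM was set against control with limma 3.58.1 (trend, R 4.3.3) on log2 of the normalized count plus a pseudocount of 1, over features with a mean of at least 5. This scale understates changes of low genes, and counting error dominates below about 10 reads. Differences between tissues and genotypes are differences of such fold changes in 1 fit over the tables concerned, called at an adjusted p below 0.05 alone. The members and gene lists were chosen with earlier results of these data known. Named in the text are all 9 members, up to 3 genes of each list called in most tables, 5 genes most like Cxcl1 and Il23a, and Hspa5 and Ddit3 as a check of the labels. Alternatives were pseudocounts of 0.5 and 5, no filter or a minimum mean of 20, scaling by TMM or to a median fold change of 0, limma without trend, count tests of the recovered reads with edgeR 4.0.16 or DESeq2 1.42.0, the replicate block, each library left out, and the 5 libraries rich in receptor reads left out. Where 1 library is left in an arm, it is assumed to vary like the rest. TM and control libraries of the same number were correlated in their deviations from group means. Values were 0.252 to 0.477 in B6 kidney and 0.252 to 0.533 in CAST kidney. Pairs of unlike number had -0.344 to 0.151 and -0.439 to 0.206 there. F1 kidney had 1 pair of the same number at -0.0272. Each liver table had only 2 such pairs, with -0.571 to 0.615 in B6. The labels do not say that libraries of the same number belong together, so the pairing is an assumption. The code was tested on simulated data. Sequences are from RefSeq (GRCm38.p6), which names promoters for 6 members.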

Additional observations from a re-analysis of the deposited data

Results flagged for a closer look

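The response of 2 members to TM differed between liver and kidney by the interaction of tissue and treatment. For Cxcl1 the liver log2 fold change less the kidney one was -5.62 in B6 and -3.45 as the mean of 3 genotypes. In CAST it was -2.03 and in F1 -2.70, neither called (limma, adjusted p = 0.341 and 0.349). In B6 both TM libraries of liver were below all liver controls, while all 3 TM libraries of kidney were above all kidney controls. For Il23a the difference was 4.14 in CAST and 3.44 as the mean of 3 genotypes. In CAST and in that mean, Il23a was higher under TM in both tissues, and the rise was larger in liver. In B6 the difference was 1.39 and in F1 4.79, neither called (limma, adjusted p = 0.628 and 0.144). The CAST call was lost when 1 of 8 of the 11 libraries was left out, and control means of Il23a in CAST were under 5 in both tissues. Groups held 2 or 3 libraries, and no single library was tested as an outlier.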

How the results depend on the processing

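No call of a member changed direction under any alternative. Over members and settings where the member was still tested, 2090 results stayed on their side of the threshold, 31 were lost and 31 gained. Most of the 2090 were not called in the main fit and stayed so, and only a called result can be lost. Calls that ended because a filter removed the member are not among the 31 lost. The number of members called moved as follows, with the share of all features called in brackets, and the cause was not tested. Without limma's trend it was 0 in B6 liver and 0 in F1 liver, where 0% of all features were called, 1 in B6 kidney (15.1%), 0 in F1 kidney (3.69%), 0 for the tissue difference in CAST (1.88%) and 2 for the liver mean (27.6%). With no filter it was 0 in F1 liver (0.508%), and with a mean of at least 20, under which fewer members are tested, 1 in B6 kidney (22%), 0 in CAST kidney (16.6%) and 2 for the kidney mean (23.9%). A pseudocount of 0.5 gave 0 for the tissue difference in CAST (2.44%) and a pseudocount of 5 gave 1 in F1 (1.48%). edgeR gave 4 in B6 kidney (17.7%), 0 for the tissue difference in CAST (2.57%) and 2 for the liver mean (28.1%), and DESeq2 gave 1 for the tissue difference in F1 (5.66%) and 3 for the liver mean (29%). Without the 5 libraries rich in receptor reads it was 4 in B6 liver (37.9%, against 11.3% with them), 2 for the tissue difference in F1 (14.1%, against 1.22%) and 3 for the liver mean (37%, against 28.7%), so that calls were gained across the whole table. With the replicate block it was 4 in B6 kidney (21.3%), where Ccl2 and Il23a were gained, and the block moved no other count of members by more than 1.5 times. Leaving out 1 library gave 1 to 2 in B6 liver, 0 to 1 in F1 liver, 1 to 5 in B6 kidney, 0 to 3 in CAST kidney, 0 to 1 in F1 kidney, 0 to 1 for the tissue difference in CAST, 0 to 2 for that in F1, 1 to 3 for the liver mean and 4 to 6 for the kidney mean. The share of all features called then ran from 5.64% to 14.1% in B6 liver, 2% to 17.5% in F1 liver, 4.37% to 18.6% in F1 kidney and 7.1% to 15.1% in CAST kidney. TMM scaling and the median fold change set to 0 changed no count of members. Members with fewer than about 10 reads, above all Ccl7, Il6, Cxcl2 and Tnf, are limited by depth.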
